A study of Mus musculus with 16 samples.

Results

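The 10 genes described here encode the PGC-1 transcriptional coactivators (Ppargc1a, Ppargc1b and Pprc1), the nuclear receptors and nuclear respiratory factors they work through (Esrra, Esrrg, Nrf1 and Gabpa) and the factors that act on mitochondrial DNA (Tfam, Tfb1m and Tfb2m). They were taken by symbol from the deposited expression table, in which each of the 10 had 1 entry among 23970 gene symbols. Levels are given in FPKM (fragments per kilobase of transcript, relative to all mapped fragments), a scale that allows for transcript length and library size. All 10 averaged 0.5 FPKM or more over the 16 libraries and were among the 11256 genes tested. Quadriceps RNA came from male wild-type C57BL/6NTac mice aged 16 weeks, in 4 groups of 4 separate animals. CON-pre and CON-post mice had eaten a control diet (CON) for 10 weeks, with 10% of energy as fat, and HFD-pre and HFD-post mice a high-fat diet (HFD) with 60%. The post groups were sampled 3 h after 1 bout of treadmill running to exhaustion, whereas the pre groups were sampled under basal conditions after the same treadmill acclimatisation and fast. No mouse was sampled at both times, so each exercise difference is between animals. Post mice had no food during the 3 h after running, and effects of running and of time without food cannot be told apart where the pre groups did not share that period.

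PGC-1 coactivators do not bind DNA themselves. They dock on transcription factors such as the estrogen-related receptors, NRF-1 and GABP (also called NRF-2), which switch on nuclear genes for mitochondrial proteins, among them the factors that copy and transcribe mitochondrial DNA. In skeletal muscle Ppargc1a is known as an early-response gene of contraction, controlled by AMPK, p38 MAPK, calcium signalling and the CREB and MEF2 families, while the mitochondrial proteins downstream build up over repeated bouts.

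Library sums lay between 283575 and 329282 FPKM, and the relative depth of the libraries, read from the steps of low-expressed genes, lay between 0.706 and 1.12 of that of CON-pre replicate 1. Pairwise correlations of log2 values over genes were 0.966 to 0.984, and no library stood apart. The 10 markers of the muscle fibre were all detected, with sums of 51937 to 69706 FPKM. Of the brown adipocyte markers, Ucp1, Elovl3, Dio2 and Zic1 had means under 0.5 FPKM, while Cidea had group means of 0.628 to 1.64 FPKM and Cox8b of 748 to 780 FPKM. The heart markers Nppa and Nppb were listed at 0 in every library, and Myh6 had group means of 1.03 to 1.96 FPKM. Sums of blood markers ran from 259 to 903 FPKM and of macrophage markers from 28.1 to 91.4 FPKM. Sums of the 3 liver markers ran from 0.346 to 17.3 FPKM in CON-pre, 0.271 to 0.740 FPKM in CON-post, 0.255 to 18.4 FPKM in HFD-pre and 0.216 to 20.8 FPKM in HFD-post.

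Promoter sequence was examined because the factors differ in how they are known to be controlled: the promoter of Ppargc1a answers to signalling, and those of several mitochondrial factors carry sites for NRF-1 and GABP. The windows below are from RefSeq GRCm38.p6, run from 250 bases before to 50 bases after the first transcribed base, and are written 5′ to 3′ on the strand of the gene. Capitals mark every match, on either strand, to the NRF-1 core GCGCANGCG, the ETS core CCGGAAGT bound by GABP, the estrogen-related receptor element TCAAGGTCA, the cAMP response element TGACGTCA, the GC box GGGCGG or the shorter TGACG contained in the cAMP response element, which was added after the windows had been seen. The 4 windows shown are those of the member that responded to exercise and of 3 members with an NRF-1 or ETS core.
Ppargc1a, chr5:51567676-51567975, minus strand: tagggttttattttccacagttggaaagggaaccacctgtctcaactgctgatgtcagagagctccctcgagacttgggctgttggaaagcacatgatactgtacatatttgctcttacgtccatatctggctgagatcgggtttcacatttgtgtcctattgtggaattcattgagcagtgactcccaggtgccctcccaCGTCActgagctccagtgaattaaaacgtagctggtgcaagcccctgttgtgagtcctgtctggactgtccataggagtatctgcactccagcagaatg
Tfam, chr10:71237995-71238294, minus strand: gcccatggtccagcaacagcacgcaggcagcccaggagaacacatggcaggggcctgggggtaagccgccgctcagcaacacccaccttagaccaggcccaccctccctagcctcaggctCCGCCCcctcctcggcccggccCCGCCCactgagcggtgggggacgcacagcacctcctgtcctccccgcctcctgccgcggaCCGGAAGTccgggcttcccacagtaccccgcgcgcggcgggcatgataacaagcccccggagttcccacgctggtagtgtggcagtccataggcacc
Tfb2m, chr1:179546227-179546526, minus strand: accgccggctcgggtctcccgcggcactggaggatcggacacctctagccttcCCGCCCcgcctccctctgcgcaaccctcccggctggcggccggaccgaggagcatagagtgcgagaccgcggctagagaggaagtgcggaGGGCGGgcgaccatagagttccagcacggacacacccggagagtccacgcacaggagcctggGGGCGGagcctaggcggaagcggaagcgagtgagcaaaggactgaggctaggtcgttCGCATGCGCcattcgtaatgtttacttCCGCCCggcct
Esrra, chr19:6921759-6922058, minus strand: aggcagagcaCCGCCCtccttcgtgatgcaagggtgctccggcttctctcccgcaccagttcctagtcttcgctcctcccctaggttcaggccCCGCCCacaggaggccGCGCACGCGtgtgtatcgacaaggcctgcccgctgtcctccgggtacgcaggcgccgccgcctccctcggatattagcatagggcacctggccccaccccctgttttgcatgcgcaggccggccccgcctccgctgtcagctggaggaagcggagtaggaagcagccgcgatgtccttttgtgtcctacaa

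The Ppargc1a window held no NRF-1 core, ETS core, estrogen-related receptor element, full cAMP response element or GC box. Its only match was TGACG on the opposite strand, at bases -49 to -45 from the start, a motif found in 20.8% of the 32851 promoter windows of the table. The Tfam window held the ETS core at -47 to -40, which 3.89% of all windows carry, together with 2 GC boxes, a motif found in 35.7% of windows. The Tfb2m window held the NRF-1 core at bases 13 to 21 after the start and 4 GC boxes, and the Esrra window held the NRF-1 core at -141 to -133 and 2 GC boxes, against 6.25% of windows with the NRF-1 core. The windows of Pprc1 and Gabpa matched none of the motifs, and none of the 13 windows of the 9 members searched held the estrogen-related receptor element (0.423% of windows) or the full cAMP response element (1.79%). GC content was 48.7% in the Ppargc1a window, below the median of 52.7% over all windows, and 70.3% for Tfam, 67.3% for Tfb2m and 66.0% for Esrra. A match describes letters in the window and does not show that a factor binds there. In that annotation Ppargc1a spans bases 51454249 to 52115853 of chromosome 5, and the window shown is at 1 of its transcript starts. FPKM values were given per gene, so transcripts from different starts are summed in them.

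Before exercise, Esrra had the highest level of the 10 genes, at 22.4 ± 4.20 FPKM in CON-pre and 22.8 ± 1.99 FPKM in HFD-pre (mean ± SD, n = 4 as for all group values below). Tfb2m followed at 13.6 FPKM in CON-pre and Tfam at 8.24 FPKM, and the ranges of these 3 genes did not overlap. Ppargc1a came next in CON-pre, at 6.60 FPKM, and its range overlapped that of Gabpa at 6.05 FPKM. Below them, the range of Tfb1m (4.46 FPKM) overlapped that of Nrf1 (3.20 FPKM), Nrf1 that of Esrrg (2.94 FPKM) and Esrrg that of Pprc1 (2.78 FPKM). The range of Pprc1 did not overlap that of Ppargc1b. Ppargc1b was lowest in all 4 groups, with means between 1.33 and 1.99 FPKM. In HFD-pre, Ppargc1a, at 4.69 FPKM, stood below the range of Gabpa (6.40 FPKM) and overlapped that of Tfb1m (4.47 FPKM). After exercise, Ppargc1a was first in CON-post, at 28.3 FPKM against 24.4 FPKM for Esrra, and next to Esrra in HFD-post, at 22.3 FPKM against 25.2 FPKM, with overlapping ranges in both diets. In HFD-post its range also overlapped that of Tfb2m, at 15.1 FPKM. Over all 16 libraries the mean of Ppargc1a (15.5 FPKM) was above that of 80.2% of the genes tested, and the mean of Ppargc1b (1.59 FPKM) above that of 22.3%.

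**Figure D1:**
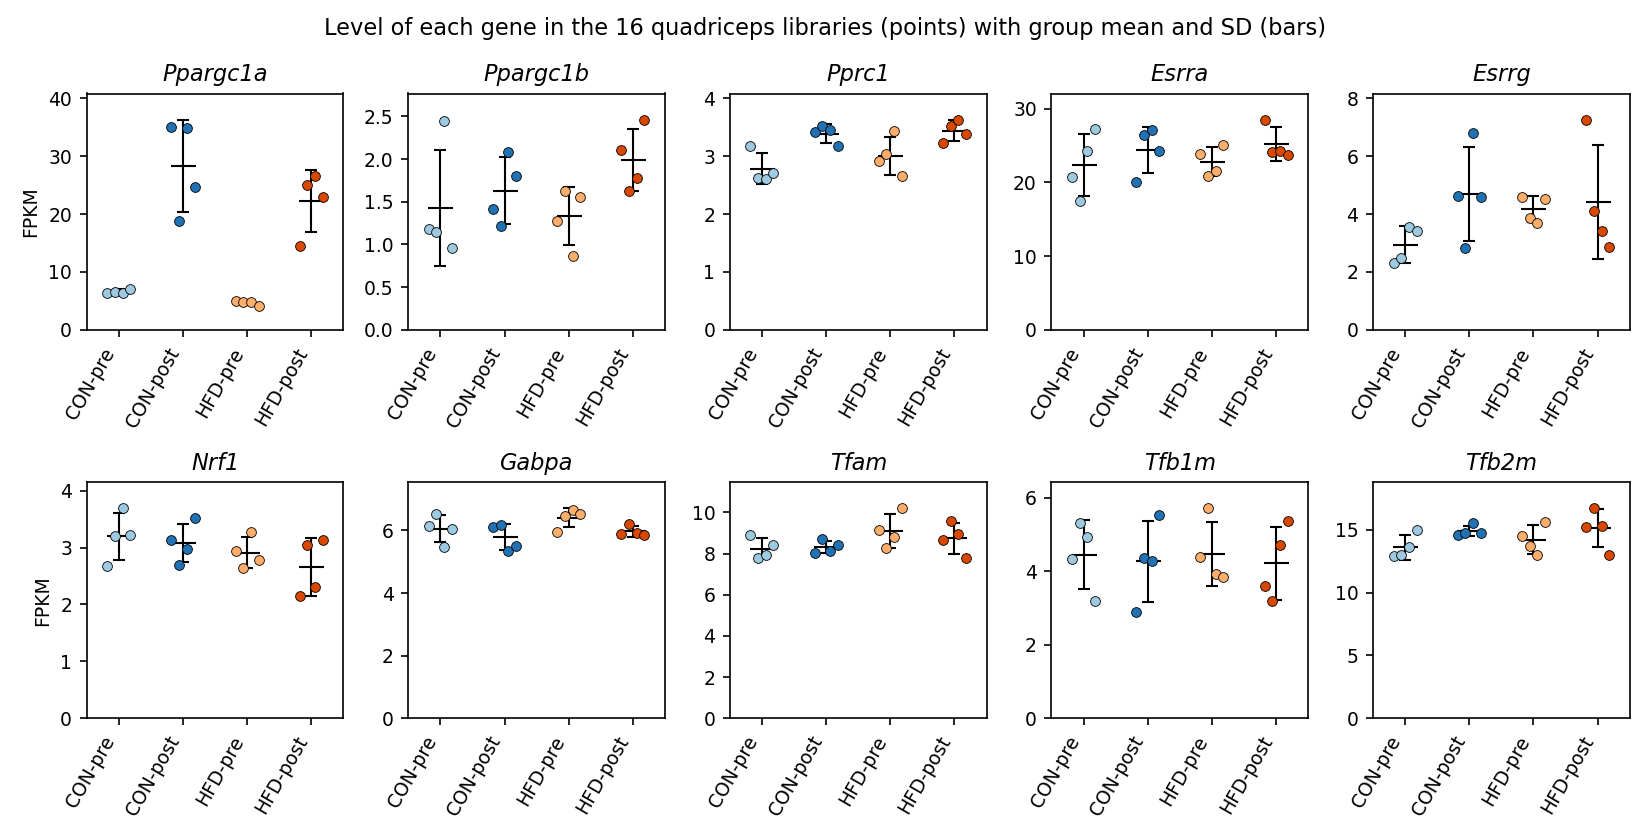
Level of each of the 10 genes, in FPKM on linear axes from 0, in every library (points, 4 mice a group, replicates 1 to 4 from left to right), with the group mean and SD as bars. Ppargc1a is the gene whose post groups (14.5 to 35.1 FPKM) lie far above its pre groups (4.18 to 7.11 FPKM), while the points of Tfam, Gabpa and Tfb2m stay at similar heights in all 4 groups.

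To see how the coactivators responded to a bout of running, post and pre groups were compared within each diet. In CON-pre, Ppargc1a, which encodes PGC-1α, stood at 6.28, 6.57, 6.42 and 7.11 FPKM in replicates 1 to 4, and in CON-post at 35.1, 18.8, 34.8 and 24.6 FPKM. In HFD-pre it stood at 4.90, 4.87, 4.84 and 4.18 FPKM, and in HFD-post at 14.5, 25.1, 26.5 and 23.0 FPKM. Every post library was above every pre library, in both diets. Ppargc1a rose 4.30-fold in CON mice by the ratio of mean FPKM (log2 fold change of FPKM + 0.5 of 1.98, SE 0.19, 95% interval 1.58 to 2.37, adjusted p = 4.38e-05 by limma). It rose 4.74-fold in HFD mice (2.10, SE 0.19, 95% interval 1.70 to 2.49, adjusted p = 2.87e-05). Because the tissue is bulk muscle, a change in the share of a cell type and a change in RNA per cell cannot be told apart. The summed FPKM of the 8 adipocyte markers lay between 324 and 478 in pre libraries and between 341 and 662 in post libraries. Fabp4 made up most of this sum, with means rising from 276 to 342 FPKM in CON and from 297 to 401 FPKM in HFD mice. Adipoq went from 17.4 to 18.3 FPKM in CON and from 18.3 to 28.2 FPKM in HFD mice. Plin1 went from 3.99 to 3.72 FPKM in CON and from 3.62 to 5.29 FPKM in HFD mice. The means of the remaining markers were higher after exercise in both diets. The sum of the 4 endothelial markers was between 39.4 and 52.4 FPKM in pre and between 45.7 and 58.6 FPKM in post libraries. Over the 16 libraries the correlation of log2 Ppargc1a with the log2 sum was 0.576 for the adipocyte, 0.462 for the endothelial and -0.412 for the liver markers, as a description. The part of these markers in the result was not tested.

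Ppargc1a was the only one of the 10 genes to pass an adjusted p of 0.05 in either diet. Over all genes tested, 1.11% were called in CON-post against CON-pre and 0.542% in HFD-post against HFD-pre. By p-value Ppargc1a ranked 3 of 11256 genes in CON mice and 2 in HFD mice, and by the size of the rise 10 and 8. With both diets averaged it rose 4.48-fold (log2 fold change 2.04, SE 0.13, adjusted p = 2.63e-07), in a contrast in which 3.86% of genes were called and 0.764% had no overlap between the 8 pre and the 8 post libraries. Leaving out any 1 library gave log2 values between 1.86 and 2.16 in CON mice and between 2.00 and 2.29 in HFD mice.

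Neither diet gave a larger response of Ppargc1a that could be told from the spread between mice. According to the paper, HFD mice performed worse in the exercise test, and running time differed between diets while work was equal. It regards the exercise stimulus as comparable because mice ran to exhaustion. The interaction of diet and exercise, the HFD response minus the CON response, was 0.12 on the log2 scale (SE 0.26, 95% interval -0.44 to 0.68, adjusted p = 1.00 by limma), an interval that runs from a ratio of responses of 0.737 to 1.60. Without CON-post replicate 2 the interaction was -0.059. No gene of the 11256 was called for this interaction (0% called by limma), whereas 356 had an unadjusted p under 0.05, and in the alternative analyses between 0 and 1 gene was called.

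The spread of Ppargc1a between mice also differed between states. Its SD of log2 values was 0.073 in CON-pre and 0.10 in HFD-pre, but 0.43 in CON-post and 0.39 in HFD-post. Its pooled SD after exercise was 4.68 times that before. In CON-pre 12.8% of the genes tested had a smaller SD than Ppargc1a, and in CON-post 93.6%. Esrrg had the next largest ratio of pooled SD, 2.29, and Pprc1 the smallest, 0.507. These ratios rest on 8 mice a state and were not tested.

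Ppargc1b encodes PGC-1β, the paralogue known to act on ERR targets with little response to acute contraction. Its levels were 1.18, 1.15, 2.44 and 0.959 FPKM in CON-pre and 1.42, 1.21, 2.08 and 1.80 FPKM in CON-post, which overlap. In HFD mice they were 1.27, 1.62, 0.869 and 1.55 FPKM before and 2.10, 1.63, 1.78 and 2.46 FPKM after exercise, so that the lowest post library lay just above the highest pre library. The log2 difference was 0.18 (SE 0.21, adjusted p = 0.808 by limma) in CON mice and 0.46 (SE 0.21, adjusted p = 0.395) in HFD mice, and neither passed the test. Leaving out 1 library gave 0.062 (without CON-pre replicate 4) to 0.40 (without CON-pre replicate 3) in CON mice. Groups did not overlap for 6.81% of all genes in HFD-post against HFD-pre and for 5.82% in CON-post against CON-pre, and Ppargc1a was the only member without overlap in the latter. Averaged over diets the Ppargc1b difference was 0.32 (95% interval 0.0083 to 0.63, adjusted p = 0.254), and the interaction was 0.28 (95% interval -0.34 to 0.90, adjusted p = 1.00), or 0.058 without CON-pre replicate 3. Over the 16 libraries the correlation of log2 Ppargc1b with the log2 sum of the endothelial markers was 0.645 as a description. The part of these markers in the differences was not tested. The microRNA gene Mir378a and 2 long non-coding RNA genes overlap the locus of Ppargc1b.

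Pprc1 encodes PRC, the PGC-1-related coactivator, known as an early gene of serum-stimulated growth. It stood at 3.18, 2.63, 2.61 and 2.71 FPKM in CON-pre and at 3.41, 3.53, 3.46 and 3.17 FPKM in CON-post, where CON-pre replicate 1 overlapped the lowest post library. HFD-pre values were 2.92, 3.03, 3.44 and 2.65 FPKM, and HFD-post values were 3.22, 3.52, 3.63 and 3.38 FPKM, with HFD-pre replicate 3 inside the post range. The log2 difference was 0.25 in CON mice (SE 0.085, adjusted p = 0.227 by limma) and 0.17 in HFD mice (SE 0.085, adjusted p = 0.455). Averaged over diets it was 0.21 (SE 0.060, 95% interval 0.081 to 0.34, adjusted p = 0.0658), the smallest adjusted p of the other 9 members in any contrast. Without HFD-pre replicate 3 this difference passed the test, at 0.24 with an adjusted p of 0.0429.

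Summed FPKM of the 3 coactivator genes was 10.8 ± 0.475 in CON-pre, 33.4 ± 8.21 in CON-post, 9.03 ± 0.474 in HFD-pre and 27.7 ± 5.42 in HFD-post. Ppargc1a made up 61.1 ± 4.47% of this sum in CON-pre and 84.3 ± 3.53% in CON-post, and 51.9 ± 1.80% in HFD-pre and 79.7 ± 4.68% in HFD-post. Across single libraries its share was between 49.9 and 66.0% before exercise and between 73.1 and 87.9% after, with no overlap. Pprc1 accounted for 25.8% of the sum in CON-pre and 33.3% in HFD-pre, more than Ppargc1b at 13.1% and 14.8%. Shares follow from the levels above and were not tested again.

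**Figure D2:**
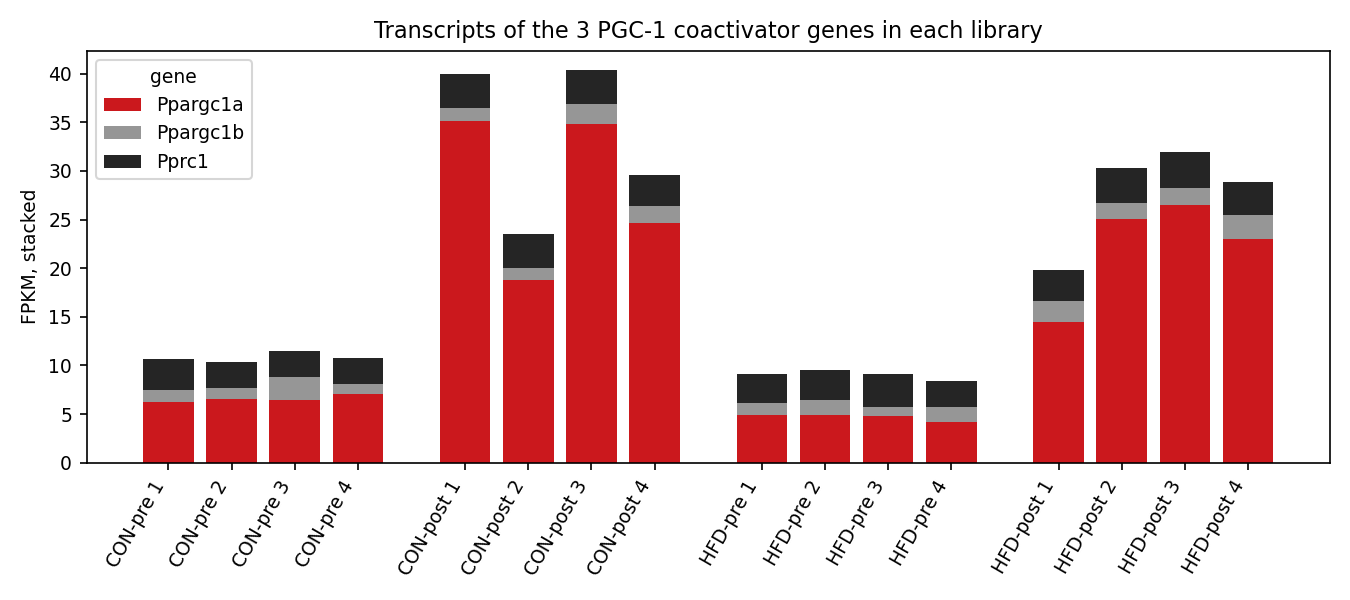
FPKM of Ppargc1a, Ppargc1b and Pprc1 stacked for each of the 16 libraries, in groups of 4 mice. Sums run from 8.38 to 11.5 FPKM in the pre libraries and from 19.8 to 40.4 FPKM in the post libraries, and nearly all of the difference is in the Ppargc1a segment.

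Estrogen-related receptors are the nuclear receptors through which PGC-1 coactivators reach genes of oxidative metabolism. Esrra, encoding ERRα, was at 20.7, 17.5, 24.3 and 27.2 FPKM in CON-pre and 20.0, 26.4, 27.1 and 24.3 FPKM in CON-post. Its values were 23.8, 20.8, 21.5 and 25.1 FPKM in HFD-pre and 28.5, 24.1, 24.3 and 23.7 FPKM in HFD-post. The groups overlapped in both diets, and the log2 difference of 0.14 averaged over diets (SE 0.087, 95% interval -0.047 to 0.32) had an adjusted p of 0.429 by limma. It was 0.083 without CON-pre replicate 2. Esrra made up between 83.9 and 88.4% of the summed FPKM of Esrra and Esrrg in the group means. The correlation of log2 Esrra with the log2 sum of the endothelial markers was 0.531 over the 16 libraries, and their part was not tested. The gene Trmt112 overlaps the locus of Esrra.

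Esrrg, encoding ERRγ, which is known for its high level in oxidative muscle, had the widest values among the members other than Ppargc1a, with a coefficient of variation of 34.1% over the 16 libraries. It was at 2.30, 2.48, 3.56 and 3.42 FPKM in CON-pre and 4.63, 2.81, 6.79 and 4.58 FPKM in CON-post, where only replicate 2 fell inside the range of CON-pre. HFD-pre values were 4.60, 3.87, 3.70 and 4.52 FPKM, all above those of CON-pre, and HFD-post values were 7.26, 4.10, 3.40 and 2.87 FPKM, on both sides of HFD-pre. The log2 difference after exercise was 0.56 (SE 0.24, 95% interval 0.049 to 1.07, adjusted p = 0.397 by limma) in CON mice and -0.00038 (95% interval -0.51 to 0.51, adjusted p = 1.00) in HFD mice. The difference between diets in this response was -0.56 (95% interval -1.28 to 0.16, adjusted p = 1.00), so a difference in response was not shown. Markers of slow fibres, a known site of Esrrg expression, varied widely within every group: the summed FPKM of the 7 markers ran from 178 to 731 over the 16 libraries. In HFD-post, replicate 1 had both the highest Esrrg and the highest slow-fibre sum (731 FPKM), and replicate 4 the lowest of both (181 FPKM). In CON-post the lowest Esrrg value, 2.81 FPKM in replicate 2, likewise went with the lowest slow-fibre sum (178 FPKM). The highest Esrrg value there, 6.79 FPKM, was in replicate 3, while the highest slow-fibre sum, 686 FPKM, was in replicate 1 (Esrrg 4.63 FPKM). Over the 16 libraries the correlation of log2 Esrrg with the log2 slow-fibre sum was 0.489 as a description. It was -0.682 with the sum of the muscle-fibre markers and 0.558 with that of the endothelial markers, and the part of these markers in the differences was not tested. In HFD-pre, by contrast, replicate 1 had the highest Esrrg of its group, 4.60 FPKM, with the lowest slow-fibre sum, 188 FPKM. Replicate 3 had the lowest Esrrg of that group, 3.70 FPKM, with the highest slow-fibre sum, 502 FPKM.

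Nrf1 and Gabpa encode NRF-1 and the DNA-binding subunit of GABP, which switch on nuclear genes for respiratory chain subunits. Nrf1 values were between 2.68 and 3.69 FPKM in CON-pre, 2.69 and 3.51 FPKM in CON-post, 2.64 and 3.27 FPKM in HFD-pre and 2.14 and 3.13 FPKM in HFD-post. The log2 difference after exercise was -0.049 in CON mice (95% interval -0.30 to 0.20, adjusted p = 0.923 by limma) and -0.12 in HFD mice (95% interval -0.37 to 0.13, adjusted p = 0.746). In HFD mice it was -0.040 without HFD-post replicate 1 and -0.19 without HFD-post replicate 4. Gabpa was among the most even of the members, with group means of 6.05 ± 0.431, 5.79 ± 0.421, 6.40 ± 0.307 and 5.97 ± 0.165 FPKM in CON-pre, CON-post, HFD-pre and HFD-post. In HFD-post its 4 values lay between 5.86 and 6.22 FPKM, and 1.66% of the genes tested had a smaller SD of log2 values there. The log2 difference of Gabpa after exercise was -0.060 (95% interval -0.21 to 0.093, adjusted p = 0.816) in CON mice and -0.090 (95% interval -0.24 to 0.063, adjusted p = 0.670) in HFD mice. In CON mice it was -0.026 without CON-pre replicate 2 and -0.10 without CON-pre replicate 3. Atp5j overlaps the locus of Gabpa.

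Tfam encodes the protein that packages mitochondrial DNA and starts its transcription, and Tfb2m the partner factor that melts the promoter for the mitochondrial RNA polymerase. Tfam stood at 8.91, 7.76, 7.91 and 8.41 FPKM in CON-pre and at 8.02, 8.72, 8.13 and 8.40 FPKM in CON-post. In HFD mice it was at 9.13, 8.27, 8.78 and 10.2 FPKM before and at 8.66, 9.57, 8.93 and 7.79 FPKM after exercise. The ranges overlapped in both diets, and the log2 differences were 0.013 (95% interval -0.15 to 0.18, adjusted p = 0.973 by limma) and -0.055 (95% interval -0.22 to 0.11, adjusted p = 0.842). The interval in CON mice spans ratios of 0.899 to 1.13, against a 4.30-fold rise of Ppargc1a in the same mice. Tfb2m was at 12.9, 13.0, 13.6 and 15.0 FPKM in CON-pre and at 14.6, 14.7, 15.5 and 14.7 FPKM in CON-post, so that CON-pre replicate 4 overlapped the post values. Its HFD values were between 13.0 and 15.6 FPKM before and between 13.0 and 16.7 FPKM after exercise. The log2 difference of Tfb2m was 0.12 (SE 0.081, adjusted p = 0.622) in CON mice and 0.080 (SE 0.081, adjusted p = 0.755) in HFD mice, and 0.10 averaged over diets (95% interval -0.020 to 0.22, adjusted p = 0.367). Tfb1m, whose product methylates the mitochondrial small ribosomal RNA, was at 3.20 to 5.32 FPKM in CON-pre, 2.89 to 5.54 FPKM in CON-post, 3.84 to 5.72 FPKM in HFD-pre and 3.20 to 5.37 FPKM in HFD-post. Its log2 differences of -0.065 and -0.084 had intervals of -0.47 to 0.34 in CON mice and -0.49 to 0.32 in HFD mice. Tfb2m made up 75.4 to 78.0% of the summed FPKM of Tfb1m and Tfb2m in the group means. Tiam2 and Cldn20 overlap the locus of Tfb1m.

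**Figure D3:**
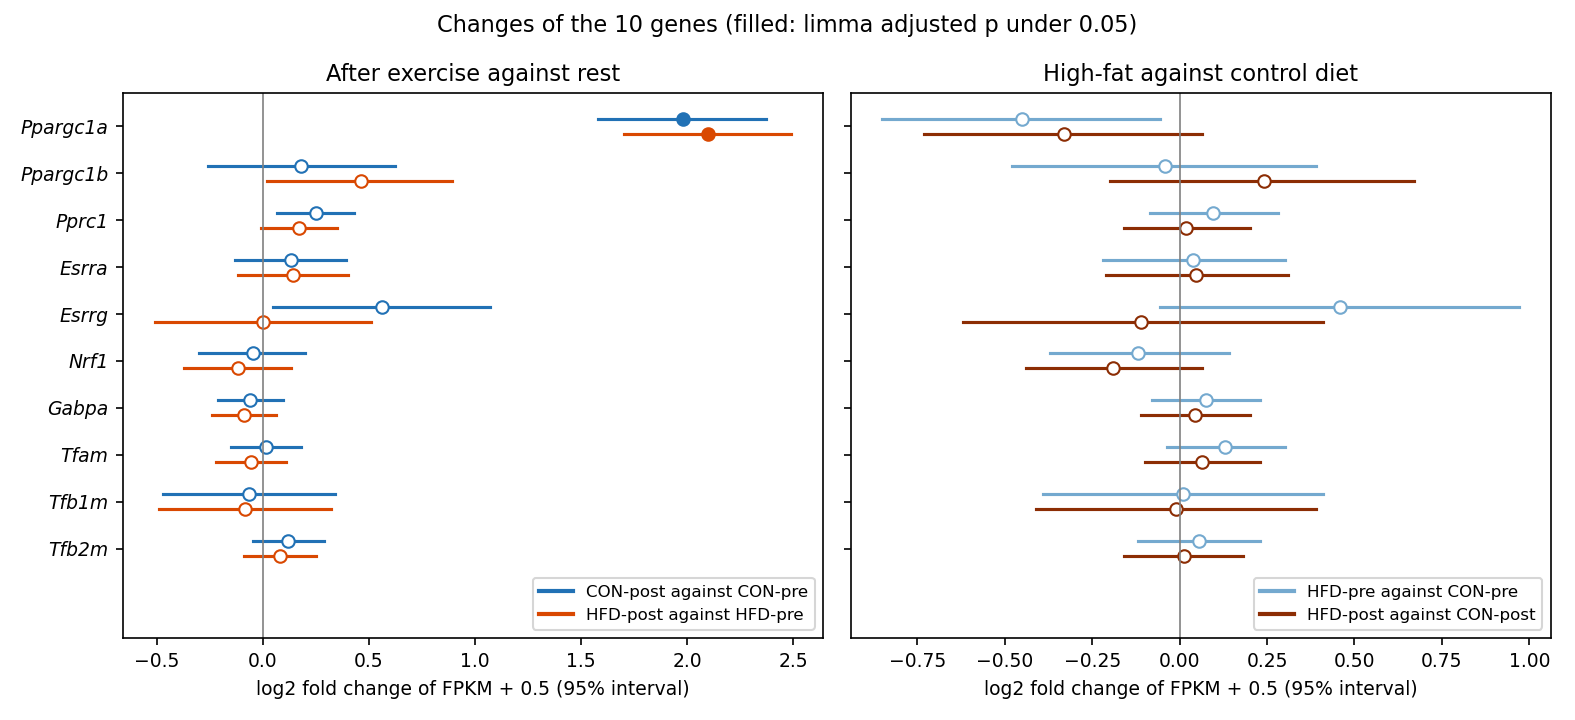
Log2 fold change of FPKM + 0.5 with its 95% interval for each of the 10 genes, after exercise against rest in each diet (left) and HFD against CON in each state (right), 4 mice a group, with filled points where limma's adjusted p was under 0.05. The 2 filled points are Ppargc1a after exercise, at 1.98 in CON and 2.10 in HFD mice.

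Across the 10 members the median log2 difference after exercise was 0.13 in CON mice, against -0.0058 over all genes tested, and 0.040 in HFD mice, against 0.035. Of the 10, 7 were higher and 3 lower in CON mice, and 5 were higher and 5 lower in HFD mice. Unadjusted p was under 0.05 for 3 members in CON mice (Ppargc1a, Pprc1 and Esrrg) and for 2 in HFD mice (Ppargc1a and Ppargc1b), compared with 11.1% and 11.7% of all genes.

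To ask whether the diet changed these factors, HFD and CON mice were compared at rest and after exercise. At rest the 4 HFD values of Ppargc1a (4.18 to 4.90 FPKM) were all below the 4 CON values (6.28 to 7.11 FPKM), with a ratio of means of 0.712. The log2 difference was -0.45 (SE 0.19, 95% interval -0.85 to -0.055) with an unadjusted p of 0.0280 and an adjusted p of 0.520 by limma, so it did not pass the test over all genes. The paper, which tested with Cufflinks, names PGC-1α among genes changed in HFD-pre whose pattern exercise reverted. It also measured the gene by quantitative PCR. When CON-pre and HFD-pre were fitted alone, so that the wide post groups did not enter the estimate of the spread, the difference was again -0.45 with an adjusted p of 0.0669. Over all genes 0.346% were called in this comparison, and groups did not overlap for 5.62%. After exercise the diets overlapped, and the log2 difference of Ppargc1a was -0.33 (95% interval -0.73 to 0.063, adjusted p = 0.907), with 0.151% of all genes called and 3.16% without overlap. This difference was -0.14 without HFD-post replicate 1 and -0.51 without CON-post replicate 2. Averaged over the 2 states it was -0.39 (SE 0.13, 95% interval -0.67 to -0.11, unadjusted p = 0.00907, adjusted p = 0.234), in a contrast that called 0.959% of all genes. The summed FPKM of the 10 muscle-fibre markers did not overlap between the diets at rest, at 64637 to 69706 in CON-pre and 57553 to 62225 in HFD-pre. Acta1 (means of 16069 in CON-pre and 14028 FPKM in HFD-pre), Tnnt3 (15486 and 13515 FPKM) and Ckm (13744 and 11715 FPKM) made up much of it. Mb, at 1265 and 1675 FPKM, and Myh1, at 542 and 592 FPKM, went the other way, and the rest were lower in HFD-pre. Slow-fibre markers were at a median sum of 507 FPKM in CON-pre and 292 FPKM in HFD-pre, with overlapping ranges of 199 to 694 and 188 to 502 FPKM. The correlation of Ppargc1a over the 16 libraries was -0.267 with the muscle-fibre sum and 0.170 with the slow-fibre sum, and the part of these markers in the diet difference was not tested.

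None of the other 9 members passed the test in a diet comparison. Esrrg was the other member without overlap at rest, in the opposite direction to Ppargc1a: its ratio of means was 1.42 and its log2 difference 0.46 (SE 0.24, 95% interval -0.056 to 0.97, adjusted p = 0.655 by limma). After exercise its difference was -0.11 (adjusted p = 0.997). Ppargc1b differed by -0.043 at rest and 0.24 after exercise, and Pprc1 by 0.095 and 0.017. Esrra differed by 0.038 at rest and 0.048 after exercise, Gabpa by 0.075 and 0.045, and Tfb2m by 0.055 and 0.012. Leaving out 1 library gave 0.032 to 0.11 for Gabpa and 0.0090 to 0.10 for Tfb2m at rest. Tfb1m differed by 0.011 at rest and -0.0091 after exercise. Tfam differed by 0.13 at rest (SE 0.079, adjusted p = 0.720) and by 0.064 after exercise (adjusted p = 0.987), and its difference averaged over states was 0.10 (95% interval -0.020 to 0.22, adjusted p = 0.589). Nrf1 was at -0.12 at rest and -0.19 after exercise, and -0.15 averaged over states (95% interval -0.33 to 0.026, adjusted p = 0.572 by limma). With 1 library left out, Nrf1 ran from -0.19 to -0.054 at rest and from -0.26 to -0.11 after exercise. At rest Tfam ran from 0.078 to 0.17 and Pprc1 from 0.038 to 0.15, and after exercise Ppargc1b ran from 0.14 to 0.34. The median over the 10 members was 0.046 at rest and 0.014 after exercise, against -0.034 and 0.0038 over all genes.

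The genes whose pattern was most like that of Ppargc1a were found by the Pearson correlation of log2(FPKM + 0.5) over the 16 libraries, among the 9908 other genes averaging 1 FPKM or more. This measure is dominated by the exercise difference and is given as a description, since the points share libraries and depth. Hk2, encoding the muscle hexokinase, came first (r = 0.987), at 52.9 ± 3.55, 111 ± 18.6, 48.6 ± 1.91 and 109 ± 15.3 FPKM in CON-pre, CON-post, HFD-pre and HFD-post. Within the 8 post libraries alone the correlation of Hk2 with Ppargc1a was 0.898, and within the 8 pre libraries 0.699. Nr4a3, an early-response orphan nuclear receptor, followed with r = 0.975, and Sik1, a kinase that restrains the CREB coactivators, with r = 0.971. Pdxk, encoding pyridoxal kinase, had r = 0.958 and Btg2, an early-response growth regulator, r = 0.957. In Btg2 the pre libraries alone gave r = -0.209. Among the other members the correlation with Ppargc1a was 0.713 for Pprc1, 0.443 for Ppargc1b, 0.437 for Tfb2m, 0.285 for Esrrg and 0.271 for Esrra. It was -0.0813 for Nrf1, -0.169 for Tfb1m, -0.234 for Tfam and -0.522 for Gabpa.

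Genes upstream of PGC-1 were described next, as lists read against the 3.86% of all genes called with both diets averaged. These and the later lists were chosen with earlier results of these data known, so their counts are a description. Of 29 signalling genes tested, 2 rose and 2 fell. Prkag3, the AMPK subunit typical of glycolytic fibres, fell from 46.2 ± 4.48 to 28.9 ± 4.52 FPKM in CON mice and from 45.8 ± 3.15 to 31.8 ± 3.49 FPKM in HFD mice. Its log2 change was -0.60 averaged over diets (SE 0.075, adjusted p = 1.73e-04 by limma), and it also passed the test in each diet. Mef2c, a muscle transcription factor that binds the Ppargc1a promoter, fell by 0.20 (SE 0.044, adjusted p = 0.0199). Hdac5, a deacetylase that holds MEF2 factors inactive, rose by 0.28 (adjusted p = 0.0195), and Foxo1, a forkhead factor of the fasting response, by 0.70 (adjusted p = 0.0487). The median over the 29 genes was 0.041, against 0.014 over all genes.

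Of 19 co-regulators and repressors tested, 4 rose and 0 fell, and their median was -0.0082. Sik1 rose from 1.80 ± 0.167 to 5.14 ± 0.252 FPKM in CON mice and from 1.67 ± 0.223 to 4.15 ± 0.962 FPKM in HFD mice, a log2 change of 1.19 averaged over diets (adjusted p = 2.03e-06 by limma). Nrip1, encoding RIP140, a corepressor of oxidative genes, rose by 0.63 (adjusted p = 0.00180), and Lpin1, encoding lipin 1, a partner of PGC-1α, by 0.37 (adjusted p = 0.00141). Of 22 nuclear receptors and other partners tested, 3 rose and 0 fell. Nr4a3 rose from 1.20 ± 0.423 to 13.7 ± 5.01 FPKM in CON mice and from 0.433 ± 0.224 to 14.0 ± 3.23 FPKM in HFD mice (log2 change 3.49 averaged over diets, adjusted p = 2.09e-08). Foxo3, which is a forkhead factor and not a nuclear receptor, rose by 0.48 (adjusted p = 0.00895) and Rora, the receptor RORα, by 0.29 (adjusted p = 0.0442). Nr1h3, the receptor LXRα, was at 0.29 without passing the test (adjusted p = 0.0616).

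Downstream, 5 of 26 muscle genes known to respond to PGC-1α rose after exercise and 0 fell, where 3.86% of all genes were called. Their median log2 change was 0.15 against 0.014 over all genes. The list was chosen with earlier results of these data known and was not tested as a set. Its counts for exercise, and for diet below, are therefore a description. Hk2 rose by 1.10 (SE 0.080, adjusted p = 1.06e-06 by limma). Pdk4, a kinase of the mitochondrial matrix that inhibits pyruvate dehydrogenase, rose from 207 ± 66.5 to 518 ± 36.3 FPKM in CON mice (adjusted p = 0.00210) and stood at 316 ± 61.1 and 433 ± 108 FPKM in HFD mice (adjusted p = 0.438). Ucp3, a mitochondrial carrier of fatty acid handling, rose from 64.7 ± 14.4 to 117 ± 13.8 FPKM in CON mice (adjusted p = 0.00878) and stood at 85.1 ± 15.1 and 103 ± 15.6 FPKM in HFD mice (adjusted p = 0.528). The difference between diets was -0.94 for Pdk4 and -0.59 for Ucp3 on the log2 scale, each with an adjusted p of 1.00, so unequal responses were not shown. Prdx5, a mitochondrial peroxidase, rose by 0.22 (adjusted p = 0.0304), and the fifth was Lpl, lipoprotein lipase. In the same list 3 of 26 genes were higher in HFD than in CON mice averaged over states, where 0.959% of all genes were called. Acadm, the medium-chain acyl-CoA dehydrogenase, was 0.41 higher (adjusted p = 5.05e-04), Cat, encoding catalase, 0.50 higher (adjusted p = 0.00267), and the other was Cpt1b, the carnitine palmitoyltransferase of muscle. Lpl and Cpt1b are outside the rule for named genes and were named after their values were seen.

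Genes of the mitochondrial machinery were read against the same 3.86% of all genes called, and against 18.5% of all genes with an unadjusted p under 0.05. Of 28 genes of mitochondrial DNA replication, transcription and nucleoid, 0 were called by limma after exercise averaged over diets, and 3 had an unadjusted p under 0.05. The gene nearest the threshold was Fastkd5, a mitochondrial RNA-processing factor, at -0.26 (adjusted p = 0.0810), while Polg, the mitochondrial DNA polymerase, was at 0.19 (adjusted p = 0.169). Of 32 protein import genes 0 were called by limma and 2 had an unadjusted p under 0.05, with Timm9, a small chaperone of the intermembrane space, at 0.32 (adjusted p = 0.0954). Of 36 nuclear genes known as targets of NRF-1, GABP and the estrogen-related receptors, 0 were called by limma and 3 had an unadjusted p under 0.05. Of these 36 genes 31 were above 0, with a median of 0.065 against 0.014 over all genes, and the examples Atp5g3 (0.21, adjusted p = 0.215) and Cox5a (0.42, adjusted p = 0.254) did not pass. Of 25 genes of mitochondrial fusion, fission and turnover, 2 rose and 0 fell. These were Bnip3, a mitophagy receptor (0.42, adjusted p = 0.0324), and Pink1, the kinase that marks damaged mitochondria (0.23, adjusted p = 0.0398). Cs, encoding citrate synthase, was at 0.12 for diet averaged over states (adjusted p = 0.251), and Opa1, the inner-membrane fusion protein, at 0.13 (adjusted p = 0.216).

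**Figure D4:**
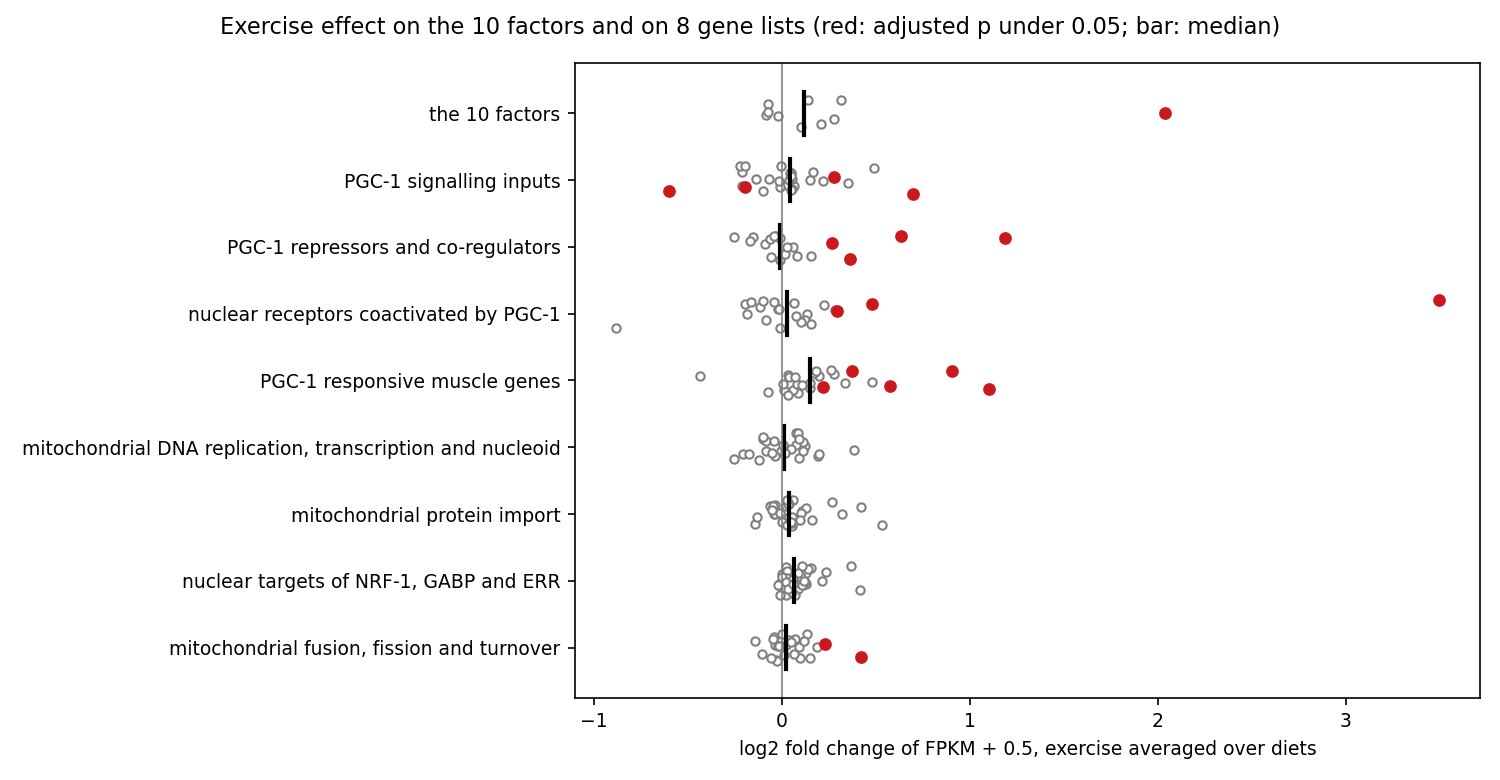
Log2 fold change of FPKM + 0.5 after exercise, averaged over diets, for the 10 factors and the genes of 8 lists (1 point a gene, 16 libraries, vertical jitter without meaning), in red where limma's adjusted p was under 0.05, with the median of each list as a bar. Ppargc1a, at 2.04, is the only red point among the 10 factors, and the lists of mitochondrial DNA, protein import and NRF-1, GABP and ERR targets hold no red point.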

How the data were processed

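Quadriceps mRNA of 16 male mice in 4 groups was analysed. According to the Methods, the authors made stranded libraries, trimmed and quality checked reads with FastQC, aligned them to mm9 with TopHat and estimated levels with Cufflinks (versions are not given in the sources used here). The authors deposited FPKM, a level already divided by transcript length and sequencing yield, so count models do not apply. Estimated levels carry no read depth, and only a relative depth was obtained from low genes.

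The table held 24487 entries. The 27 entries with a date or number for a name were left out (0.0771% of FPKM), and entries of 260 symbols found several times were summed. No sample column was left unused. The 11256 genes averaging 0.5 FPKM or more were tested with limma 3.58.1 (statmod 1.5.0, R 4.3.3). The model held log2(FPKM + 0.5) and the 4 groups together, had no covariate and let the variance follow the mean level. Calls required a p under 0.05 after Benjamini-Hochberg adjustment across those genes. Contrasts were exercise in each diet, diet in each state, their interaction and both averages, and contrasts that share a group are not independent. Levels of different genes are compared only as FPKM. The code was tested on simulated data. Other steps used Python 3.11.15, numpy 2.4.6, pandas 2.3.3 and matplotlib 3.10.9.

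The members and gene lists were chosen with earlier results of these data known, and no list was given a test of its own. Named genes were all 10 members, from each list up to 4 genes with the smallest p for exercise and up to 2 for diet (not all are given here, and the values of 1 gene are not reported), and the 5 genes most like Ppargc1a. Alternatives were other pseudocounts, filters, scalings, fits, a replicate block, thresholds and leaving out each library.

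Positions and promoter windows are from RefSeq GRCm38.p6, because 692 of 692 loci that accompany the study's gene lists overlapped the gene of the same symbol there, against 114 in mm9. Motifs were searched in 13 windows of 9 members. Ppargc1b is described without sequence.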

Additional observations from a re-analysis of the deposited data

Results flagged for a closer look

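Each of the 40 sets of 4 libraries (10 genes in 4 groups) was examined for a library far from the other 3 of its group, by a rule that chance meets in about 1 in 20 sets. It marked 5 sets. Ppargc1a in HFD-pre replicate 4 was at 4.18 FPKM, below the other 3 libraries at 4.84 to 4.90 FPKM, and still below every CON-pre value. Ppargc1b in CON-pre replicate 3 was at 2.44 FPKM, against 0.959 to 1.18 FPKM, and without this library the Ppargc1b difference at rest between diets was 0.18 on the log2 scale in place of -0.043. Pprc1 in CON-pre replicate 1 was at 3.18 FPKM, against 2.61 to 2.71 FPKM. Esrra in HFD-post replicate 1 was at 28.5 FPKM, against 23.7 to 24.3 FPKM, in the library that also held the lowest post value of Ppargc1a (14.5 FPKM) and the highest Esrrg value (7.26 FPKM). Tfb2m in CON-post replicate 3 was at 15.5 FPKM, against 14.6 to 14.7 FPKM. No cause was tested for any of them.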

How the results depend on the processing

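The 51 log2 differences were recomputed under up to 27 alternatives each. Of the 1366 values, 1324 kept their direction and their side of the threshold, 41 reversed, all for differences of at most 0.12 that had not passed the test, and 1 newly passed (Pprc1, given above). Ppargc1a was called after exercise in each diet in all 27 alternatives, with log2 values of 1.86 to 2.16 in CON mice and 2.00 to 2.29 in HFD mice. At an unadjusted p under 0.05 the members called numbered 3 for CON exercise (11.1% of all genes), 2 for HFD exercise (11.7%), 1 for diet at rest (8.25%), 3 for exercise averaged over diets (18.5%) and 1 for diet averaged over states (10.4%), and 2 for exercise averaged over diets at an adjusted p under 0.1. Leaving out 1 library gave 1 to 2 members for exercise averaged over diets.

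Reversed values were, for Tfam after CON exercise, -0.014 with upper-quartile scaling, -0.0028 with quantile normalization and -0.0031 with array weights, for Esrrg after HFD exercise 0.0051 with a pseudocount of 1, for Ppargc1b at rest between diets 0.013 with quantile normalization, for Tfb1m at rest -0.0074 and Esrra after exercise -0.012 between diets with array weights, and for Tfb2m between diets after exercise -0.00014 with upper-quartile scaling. Leaving out 1 library moved none of the 3 called differences and 33 of the 48 others by over 1.5 times, and reversed some. For CON exercise these ran from -0.12 to 0.014 for Nrf1, -0.014 to 0.049 for Tfam and -0.20 to 0.090 for Tfb1m, and for HFD exercise from -0.25 to 0.16 for Esrrg and -0.20 to 0.028 for Tfb1m. For diet at rest they ran from -0.16 to 0.18 for Ppargc1b, -0.071 to 0.13 for Esrra and -0.12 to 0.10 for Tfb1m. For diet after exercise they ran from -0.011 to 0.044 for Pprc1, -0.043 to 0.10 for Esrra, -0.35 to 0.075 for Esrrg, -0.16 to 0.11 for Tfb1m and -0.038 to 0.078 for Tfb2m. The Ppargc1a interaction ran from -0.059 to 0.31. The cause was not tested.

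Counts over all genes moved more: 125 genes for CON exercise became 72 with only the 2 groups fitted and 187 without CON-pre replicate 4, 61 for HFD exercise became 21 without HFD-pre replicate 2, 39 for diet at rest became 21 without CON-pre replicate 1 and 63 with array weights, 17 for diet after exercise became 2 with only the 2 groups fitted, and 435 for exercise averaged over diets became 246 without CON-pre replicate 1. With a replicate block they were 116, 42, 32, 17 and 328 in that order, and the block changed no call of a member. Same-numbered libraries of different groups had correlations of -0.22 to 0.213 in their deviations, over 0.1 in 5 of 24 pairs, so the numbers were not taken to pair the mice.

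Precision is limited by 4 mice a group, and FPKM carry no read depth and so no counting error.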
